A study of Mus musculus with 18 samples.

Results

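The genes of the cytosolic ribosomal proteins, which form the protein part of the ribosome outside mitochondria, were followed in the tibialis anterior, a muscle at the front of the lower hindlimb of the mouse. Members were chosen by name, from the protein-coding genes called Rpl or Rps with a number, Rplp0, Rplp1, Rplp2 and Rpsa, with the muscle paralog Rpl3l included and the Rps6k kinases left out. Of 79 such genes in the table of 20922 genes, 78 had a mean of at least 10 normalized counts over the 18 libraries. Rpl39l lay below that mean and was not tested. The 78 members stood among 12262 genes tested, and comprised 44 genes of the large subunit, 31 of the small subunit and 3 of the stalk. The rule used the names and the mean over all libraries, not the groups, so each difference between groups below was open to test.

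All mice carried the floxed clock gene allele Bmal1fx/fx and were given doxycycline by oral gavage on 3 days. The transgene ACTA-rtTA-TRE-Cre then drives recombination from a skeletal muscle promoter, so other cells of the muscle should keep Bmal1. A week after the last dose the femoral artery of 1 hindlimb was tied, a model of peripheral artery disease, and muscles were taken 36 days after surgery. The groups were ligated limbs of Bmal1 knockouts (BKO ligated, 4 libraries), ligated limbs of controls (WT ligated, 4), intact limbs of knockouts from the other side (BKO intact, 5) and intact limbs of controls (WT intact, 5). The labels write the Cre genotype as +/+ for controls and -/- for knockouts, the reverse of what the names imply, so the direction of every BKO against WT comparison rests on the group names. The labels give neither the age and sex of the mice nor the time of day of collection, and do not say which libraries came from the same mouse.

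Each ribosome joins a small subunit, which reads the mRNA, to a large subunit, which forms the peptide bond and holds the exit tunnel of the new protein. The P proteins form a stalk on the large subunit that recruits translation factors. Cells make most of these proteins in equal numbers. Their mRNAs share a tract of pyrimidines at the start, the TOP motif, through which the kinase mTORC1 and the protein LARP1 set their translation. In striated muscle Rpl3l replaces Rpl3, a protein next to the site of peptide bond formation, in many ribosomes.

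Depth was 14.1 to 25.6 M reads per library. The count of Bmal1 (symbol Arntl) covers the whole gene and the floxed exon is unnamed in the labels, so this count checks no label. It averaged 70.0 normalized counts in BKO ligated, 16.2 in WT ligated, 49.9 in BKO intact and 56.3 in WT intact muscle. Nr1d2, which BMAL1 activates, averaged 508 ± 68.5 in BKO ligated and 1592 ± 96.3 in WT ligated libraries (SD, n = 4 each), and 524 ± 37.8 in BKO intact and 1675 ± 69.3 in WT intact libraries (SD, n = 5 each), with no overlap. The mitochondrial ribosomal RNA mt-Rnr2 took 43.3, 51.9, 55.5 and 40.9% of the reads in BKO ligated libraries 2, 4, 5 and 6, and 39.2, 45.3, 38.1 and 41.8% in WT ligated libraries 2, 4, 5 and 6. It took 33.6 to 36.1% in BKO intact and 31.9 to 34.3% in WT intact libraries. BKO ligated 4 and 5 and WT ligated 4 held the largest shares, and the counts of called members are given with and without these 3 libraries. All 13 of 13 muscle fibre markers were detected, with a summed level of 1836860 to 2168120 normalized counts in BKO ligated, 1785780 to 2071500 in WT ligated, 2463460 to 2897340 in BKO intact and 2517250 to 3054840 in WT intact libraries.

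The starts of 7 members are shown because the pyrimidine tract is the known feature these genes share and because these 7 carried the differences described below. Each line gives 40 bases before and 20 from the annotated start on, from the gene's first RefSeq entry on GRCm38.p6. Capitals mark the longest run of a C followed by 6 or more pyrimidines, from 30 bases before the start to the line's end. Rps26, Rps24, Rpl35 and Rpl15 hold such a run there, and Rps2, Rplp0 and Rpl3l do not. A shorter tract was not marked, so a line without capitals may still hold a TOP motif.
Rps26, chr10:128626487-128626546, minus strand: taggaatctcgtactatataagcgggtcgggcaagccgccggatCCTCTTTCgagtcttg
Rps24, chr14:24490638-24490697, plus strand: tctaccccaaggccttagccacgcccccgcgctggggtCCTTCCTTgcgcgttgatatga
Rpl35, chr2:39005112-39005171, minus strand: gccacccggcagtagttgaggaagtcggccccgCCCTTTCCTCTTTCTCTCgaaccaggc
Rpl15, chr14:18270967-18271026, minus strand: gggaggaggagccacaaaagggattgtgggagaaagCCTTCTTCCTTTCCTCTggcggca
Rps2, chr17:24720023-24720082, plus strand: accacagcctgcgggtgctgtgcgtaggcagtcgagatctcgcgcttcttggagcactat
Rplp0, chr5:115559427-115559486, plus strand: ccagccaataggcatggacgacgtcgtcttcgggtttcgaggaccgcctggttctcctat
Rpl3l, chr17:24727786-24727845, plus strand: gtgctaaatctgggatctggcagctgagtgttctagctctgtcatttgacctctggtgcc
Of the 78 members, 58 had a promoter in that table. Of these, 36 (62.1%) held the run within 30 bases either side of the start in any entry, against 29.7% of 27025 genes. The letters CACGTG, the E-box that BMAL1 with CLOCK can bind, stood in the 300 bases around the start of 6 of the 58 (10.3%), against 8.09% of all genes. Those 6 were Rpl13a, Rpl14, Rpl19, Rpl23, Rpl34 and Rps19. The sequence reads the same on both strands, and a match is a description of letters, not a bound site.

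Levels of the members spanned a wide range although most of their proteins, not all, are needed in equal numbers. Per kilobase of coding sequence, the median member stood at 1423 normalized counts in WT intact muscle, with quartiles at 1049 and 1911. Rpl41, a very short protein that bridges the subunits, ranked highest there at 5662, followed by the stalk protein Rplp1 at 4671 and Rps24 at 3660. The coding part is only 138 bases of Rpl41's 509-base transcript and 399 of Rps24's 1613, which raises their values on this scale. Per kilobase of whole transcript, over all libraries, Rplp1 ranked 1, Rpl41 8 and Rps24 45 of the 78, and Rps15a was lowest. Per kilobase of coding sequence the lowest was Rpl3, at 309 normalized counts in BKO ligated and 191 in WT intact muscle. Rpl27 at 555 and Rps13 at 644 came next in WT intact muscle. The order of the members was alike in BKO ligated and WT intact muscle, with a Spearman correlation of 0.81 across the 78 members, given as a description. Rps26 had the largest shift in place, at rank 60 in BKO ligated and rank 12 in WT intact muscle, counted from the highest level.

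**Figure D1:**
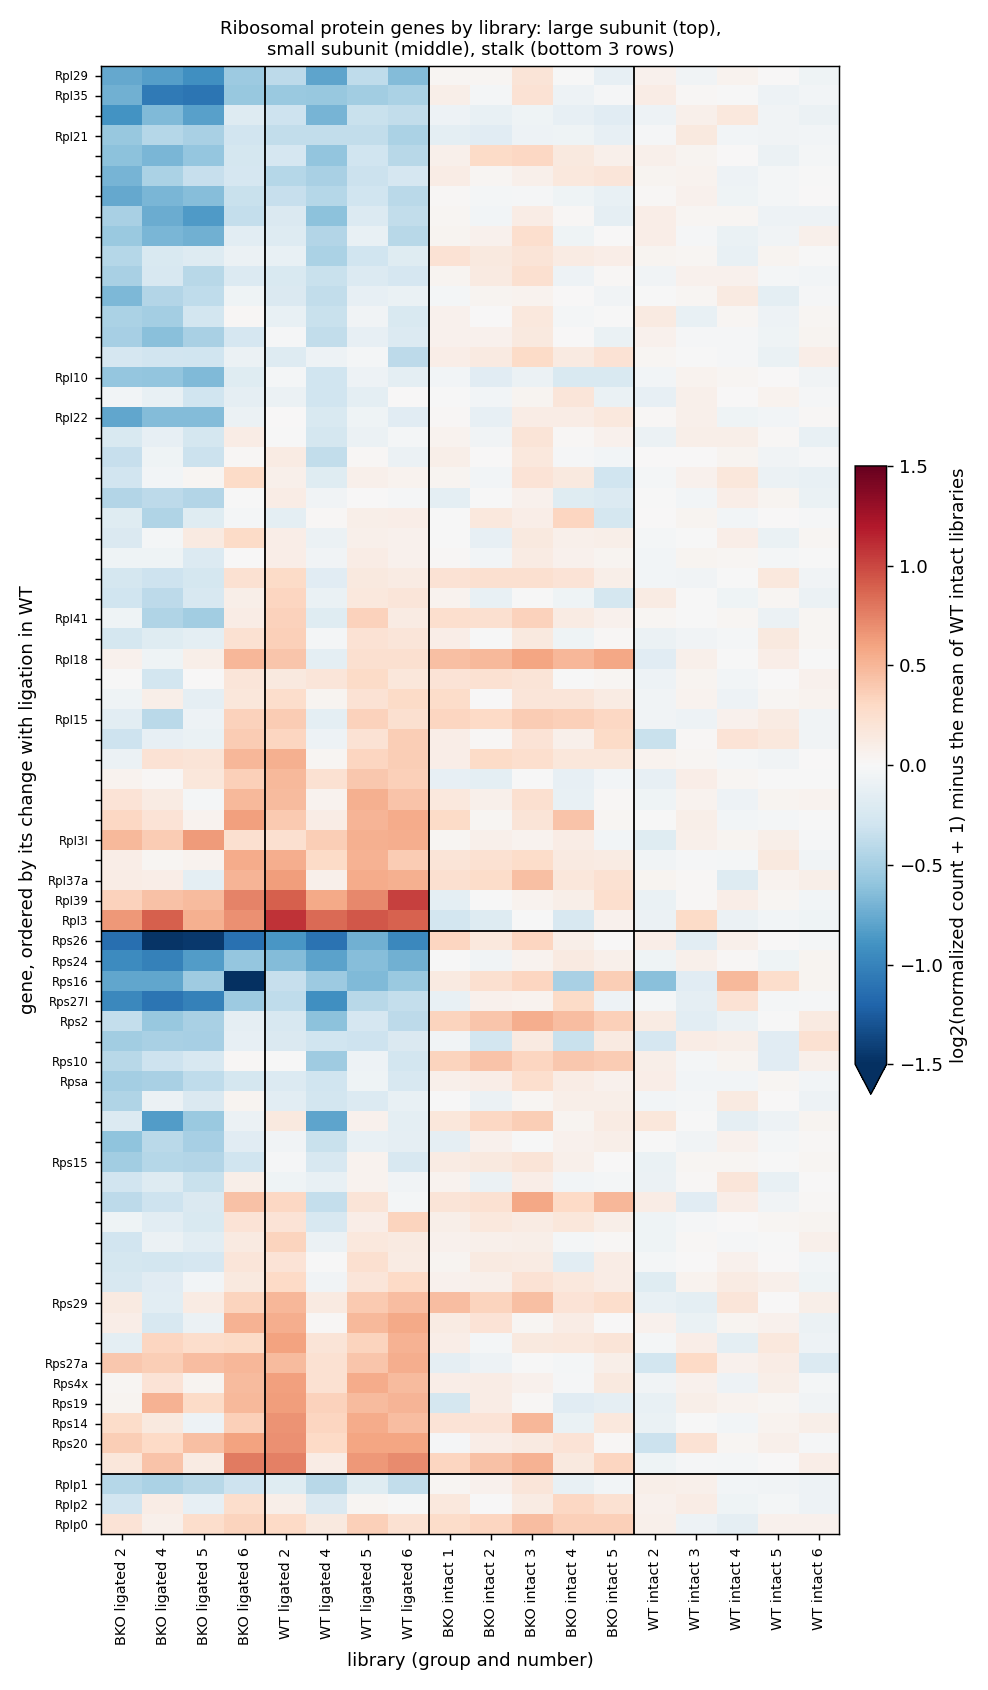
Heat map of 73 of the 78 genes (rows, with 29 named) in 18 libraries (columns, BKO ligated, WT ligated, BKO intact, WT intact), as log2(normalized count + 1) minus the mean of the WT intact libraries. Rows within each block run from the lowest to the highest log2 fold change with ligation in WT, for example from Rps26 down to Rps20 in the small subunit; blue rows in the 8 ligated libraries sit above red ones, BKO ligated libraries 2, 4 and 5 are the bluest, and Rps16 in BKO ligated library 6 lies below the colour scale.

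Most members that changed with ligation in BKO mice fell. Of the 78 members, 8 rose and 37 fell in BKO ligated against BKO intact limbs, at a Benjamini-Hochberg adjusted p under 0.05 over all genes tested with limma. Among all genes tested 22.1% rose and 25.1% fell, 47.2% together, against 10.3% and 47.4% of the members. The median of the members was -0.22 on the log2 scale, and that of all genes tested was 0.00. Of the large subunit genes 23 of 44 fell and 4 rose, and of the small subunit genes 13 of 31 fell and 4 rose. With a correction for transcript length, 16 rose and 27 fell in BKO, 35 of the 45 calls were kept and the median was -0.04.

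In WT mice members changed in both directions, with 22 that rose and 18 that fell in WT ligated against WT intact limbs (limma). Among all genes tested 18.7% rose and 21.1% fell, 39.8% together, against 28.2% and 23.1% of the members. The median of the members was 0.02 on the log2 scale, against 0.00 for all genes tested. Large subunit genes rose in 10 and fell in 12 of 44 cases, and small subunit genes rose in 11 and fell in 5 of 31. Removing 1 library at a time changed none of the 4 counts of the 2 genotypes by over 1.5 times. Scaling each library to its total outside mitochondrially encoded genes, however, gave 8 rises and 29 falls in BKO and 43 rises and 5 falls in WT, while it moved the median of all genes tested by 0.12 in BKO and 0.27 in WT. With the mt-Rnr2 share of each library as a covariate, 7 rose and 12 fell in BKO, and 31 rose and 8 fell in WT. That share was larger in every ligated than in every intact library, so this fit cannot separate it fully from ligation. Calls among all genes also became fewer, from 2713 higher and 3077 lower to 816 and 1047 in BKO. In WT they went from 2295 and 2585 to 1465 and 1690. The same limit holds for each call given below as lost with this covariate. Without the 3 libraries with most mt-Rnr2, 9 rose and 27 fell in BKO, with 35 of the 45 calls kept, and 29 rose and 15 fell in WT, with 37 of the 40 kept.

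The calls of the 2 genotypes overlapped in part. All 18 members that fell in WT also fell in BKO, and the 8 that rose in BKO (among them Rpl3, Rpl3l, Rpl13a, Rpl39, Rps19, Rps20 and Rps27a) also rose in WT. A further 19 members fell in BKO and were not called in WT, and 14 rose in WT and were not called in BKO. No member was called in opposite directions, although 15 members had a log2 fold change above 0 in BKO and 42 in WT. The 2 comparisons use different libraries, and across the 78 members their log2 fold changes had a Pearson correlation of 0.90 and a Spearman correlation of 0.88, against 0.75 and 0.71 across all 12262 genes, given as a description.

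**Figure D2:**
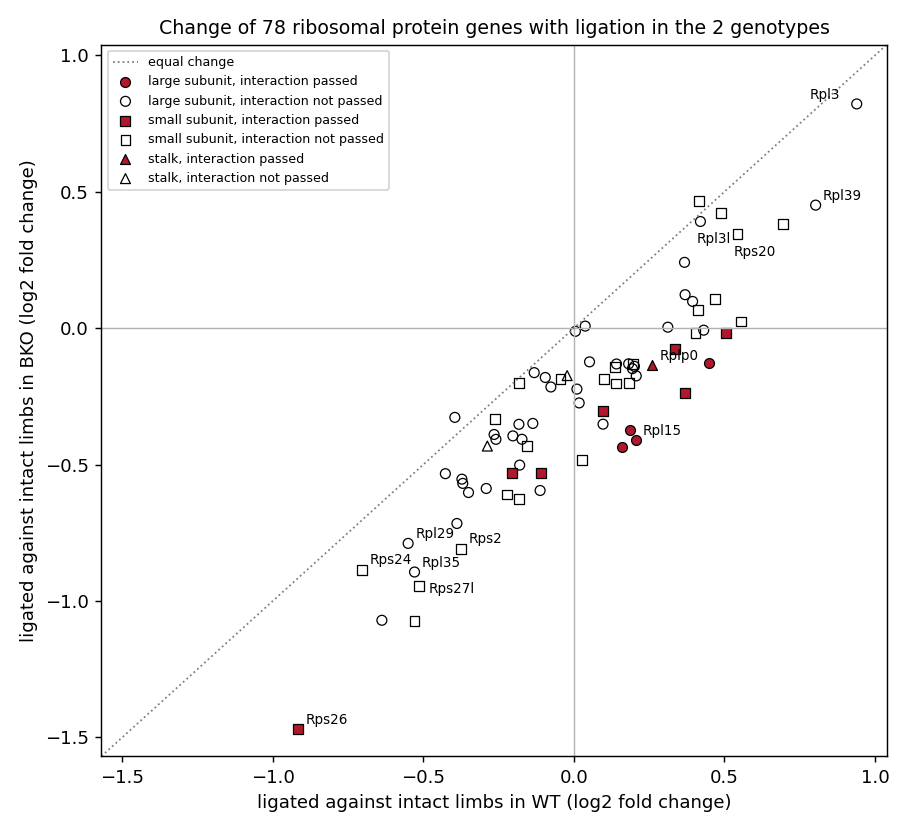
Log2 fold change of each of the 78 genes with ligation in BKO (y axis) and in WT (x axis), with circles for the large subunit, squares for the small subunit, triangles for the stalk and filled symbols for genes whose interaction passed the test. Most points lie along a band below the dotted line of equal change, from Rps26 at the lower left to Rpl3 at the upper right.

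Rps26, a small subunit protein that touches the mRNA where it leaves the ribosome, fell most in both genotypes (ENSMUSG00000025362, chromosome 10, 128624534 to 128626747). It had 373, 296, 301 and 376 normalized counts in BKO ligated libraries, 449, 380, 497 and 420 in WT ligated libraries, 1022, 915, 1022, 870 and 825 in BKO intact libraries and 880, 738, 864, 824 and 804 in WT intact libraries. No ligated library reached any intact one. The fall was 2.77-fold in BKO (log2 fold change -1.47 ± 0.10 SE, limma adjusted p = 1.15e-09) and 1.89-fold in WT (-0.92 ± 0.10, adjusted p = 3.7e-07).

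Rps24, a small subunit protein needed to process the precursor of the small subunit's rRNA, also separated the limbs completely. It had 758, 724, 816 and 976 normalized counts in BKO ligated, 930, 834, 938 and 887 in WT ligated, 1454, 1408, 1516, 1597 and 1543 in BKO intact and 1395, 1534, 1481, 1395 and 1497 in WT intact libraries. The highest ligated library, BKO ligated 6, stayed below the lowest intact one. The fall was 1.85-fold in BKO (log2 fold change -0.89 ± 0.08 SE, limma adjusted p = 2.37e-08) and 1.63-fold in WT (-0.70 ± 0.08, adjusted p = 5.32e-07).

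Rpl35, a large subunit protein beside the exit tunnel, had 329.8, 260.1, 253 and 367 normalized counts in BKO ligated, 370.2, 366, 378 and 389.5 in WT ligated, 576, 531, 631, 517 and 534 in BKO intact and 587, 549.6, 541, 513 and 526 in WT intact libraries. The ligated and intact libraries did not overlap, and 3 of the 4 BKO ligated libraries lay below every WT ligated one. The log2 fold change was -0.89 ± 0.10 SE in BKO (limma adjusted p = 4.45e-07) and -0.53 ± 0.10 in WT (adjusted p = 0.000218). Its call in WT was lost with the mt-Rnr2 share as a covariate (limma adjusted p = 0.0544). Rpl29 fell by 0.79 in BKO and by 0.55 in WT, and Rpl21 by 0.33 in BKO and by 0.40 in WT on the same scale. Rps27l, a paralog of Rps27 that p53 is known to induce, fell by 0.95 in BKO and by 0.51 in WT on the log2 scale. The calls of Rpl21 in BKO and of Rps27l in both genotypes were lost with that covariate.

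Rps2, which lines the path of the mRNA into the small subunit, had the highest mean count of all members. It had 2229, 1933, 2037 and 2607 normalized counts in BKO ligated, 2421, 1869, 2408 and 2186 in WT ligated, 3598, 3830, 4169, 3933 and 3656 in BKO intact and 3126, 2574, 2682, 2841 and 3134 in WT intact libraries. Within each genotype the ligated and intact libraries did not overlap, BKO ligated and WT ligated overlapped, and every BKO intact library was above every WT intact one. The log2 fold change with ligation was -0.81 ± 0.09 SE in BKO (limma adjusted p = 8.17e-07) and -0.37 ± 0.09 in WT (adjusted p = 0.00315). The call in WT was lost with the mt-Rnr2 share as a covariate (adjusted p = 0.326).

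Rpl3 and its muscle paralog Rpl3l both rose. Rpl3 had 362, 429, 334 and 371 normalized counts in BKO ligated, 489, 416, 439 and 426 in WT ligated, 190, 200.2, 229, 195 and 241 in BKO intact and 217, 281, 216, 223 and 219 in WT intact libraries. Each ligated library was above each intact one. The rise was 1.77-fold in BKO (log2 fold change 0.82 ± 0.10 SE, limma adjusted p = 2.04e-06) and 1.92-fold in WT (0.94 ± 0.10, adjusted p = 4.46e-07).

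Rpl3l had 1937, 1804, 2153 and 1635 normalized counts in BKO ligated, 1629, 1783, 2006 and 2016 in WT ligated, 1408, 1459, 1435, 1497 and 1344 in BKO intact and 1218, 1458, 1427, 1464 and 1364 in WT intact libraries. Here too the ligated libraries were above the intact ones. The rise was 1.31-fold in BKO (log2 fold change 0.39 ± 0.08 SE, limma adjusted p = 0.000691) and 1.34-fold in WT (0.42 ± 0.08, adjusted p = 0.000442). The call in BKO was lost with the mt-Rnr2 share as a covariate (limma adjusted p = 0.296). Per length of transcript, Rpl3l stood above Rpl3 in every library. The ratio of the 2 was 5.01 ± 1.01 in BKO ligated and 4.16 ± 0.615 in WT ligated (SD, n = 4 each), and 6.72 ± 0.870 in BKO intact and 5.94 ± 0.611 in WT intact libraries (SD, n = 5 each). BKO ligated libraries, at 4.13 to 6.33, overlapped BKO intact ones, at 5.48 to 7.54, while the WT ligated libraries, the highest at 4.65, lay below the WT intact ones, the lowest at 5.10. The annotated transcripts of Rpl3 and Rpl3l share no stretch of 50 bases with each other, but 85.6% of Rpl3's stretches recur in other annotated transcripts, so its counts are less certain than those of Rpl3l. Rpl3l lies on chromosome 17 at 24727820 to 24736143, close to Rps2 at 24718116 to 24721929 on the same strand, and the 2 moved in opposite directions with ligation.

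Rpl39, which lines the exit tunnel, had 219.9, 236, 241 and 290.0 normalized counts in BKO ligated, 323, 258, 287 and 353 in WT ligated, 156, 173, 179, 184 and 207 in BKO intact and 161, 175, 186, 176 and 169 in WT intact libraries. All ligated libraries were above all intact ones, and the log2 fold change was 0.45 ± 0.11 SE in BKO (limma adjusted p = 0.00168) and 0.80 ± 0.11 in WT (adjusted p = 5.69e-06). Rps20 rose by 0.34 in BKO and 0.54 in WT on the log2 scale. Rps19, often mutated in human Diamond-Blackfan anaemia, rose by 0.42 in BKO and 0.49 in WT, and Rps27a, made as a fusion with ubiquitin, by 0.47 in BKO and 0.42 in WT. The calls of these 3 in BKO were lost with the mt-Rnr2 share as a covariate. Rps4x, which is on the X chromosome, had a log2 fold change of 0.11 in BKO that did not pass (limma adjusted p = 0.353), and rose by 0.47 in WT.

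The 3 stalk genes did not move together. Rplp1 fell by 0.43 in BKO and by 0.29 in WT on the log2 scale, with 1204 ± 61.3 normalized counts in BKO ligated and 1311 ± 114 in WT ligated (SD, n = 4 each), against 1627 ± 122 in BKO intact and 1598 ± 89.3 in WT intact libraries (SD, n = 5 each). Rplp1's calls in both genotypes were lost with the mt-Rnr2 share as a covariate. Rplp0, the base that anchors the stalk, had a log2 fold change of -0.14 in BKO (limma adjusted p = 0.115) and rose by 0.26 in WT (adjusted p = 0.00511). Rplp2 passed in neither genotype.

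**Figure D3:**
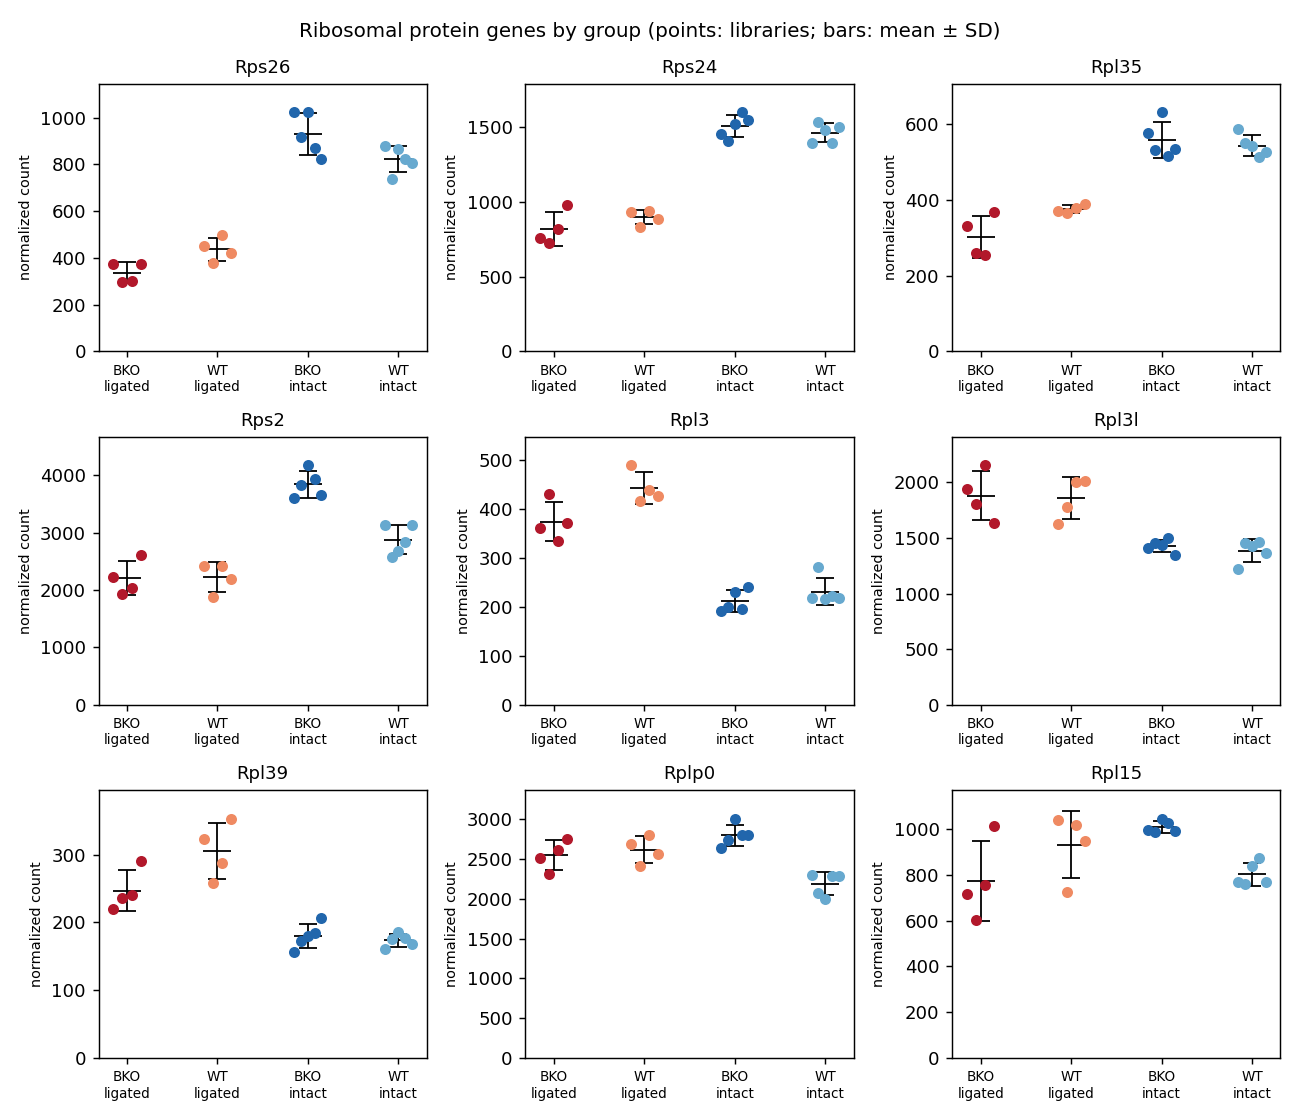
Normalized counts of 9 genes in BKO ligated, WT ligated, BKO intact and WT intact muscle, with 1 point per library and bars for the mean and SD (n = 4 ligated and 5 intact libraries per genotype; axes start at 0). Rps26, Rps24 and Rpl35 are lower and Rpl3, Rpl3l and Rpl39 higher in all ligated than in all intact libraries; Rps2 and Rplp0 are highest in BKO intact muscle.

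In intact limbs, 7 members were higher and 0 lower in BKO than in WT (limma). Of all genes tested, 8.56% were higher and 9.75% lower, 18.3% together, so the 8.97% of members that were higher is close to the background, and the 0% that were lower is below it. At an unadjusted p under 0.05, limma had 15 members higher and 0 lower, and edgeR and DESeq2 each called 7 higher and 0 lower at an adjusted p under 0.05. Among all 12262 genes, 1754 were higher and 1962 lower unadjusted, 1029 and 1256 with edgeR, and 1160 and 1315 with DESeq2. The median of the members was 0.07 and 65 of 78 lay above 0, against a median of 0.00 for all genes tested. The 7 included Rplp0, Rpl18, Rps2, Rps10, Rps29 and Rpl15. In all 7 the BKO intact and WT intact libraries did not overlap, which describes genes already called on these values. Of all 78 members, 16 lay above and 1 below without overlap, and the share of all genes is not given here. With the spread estimated from intact libraries alone, 14 members were higher, with the mt-Rnr2 share as a covariate 18, and with scaling outside mitochondrial genes 13. Of all 12262 genes, 1110, 1283 and 1403 were higher in these fits, in the same order, against 1050 in the main fit. Without the 3 ligated libraries with most mt-Rnr2, 10 members and 1206 of all genes were higher. With a correction for transcript length, 6 members were higher and 3 lower, against 1001 and 1039 of all genes. Of the 7 calls 5 were then kept, and the median of the members was -0.05.

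Rplp0 had 2639, 2744, 3010, 2799 and 2803 normalized counts in BKO intact and 2306, 2074, 1996, 2291 and 2285 in WT intact libraries (ENSMUSG00000067274, chromosome 5, 115559467 to 115563727). The gap between the highest WT and the lowest BKO library was larger than the range within WT intact. It was 1.28-fold higher in BKO (log2 fold change 0.35 ± 0.07 SE, limma adjusted p = 0.000551). Rpl18, in the large subunit, had the largest difference, with 634, 653, 700.0, 659 and 696 normalized counts in BKO intact and 412, 492, 464, 497 and 465 in WT intact libraries, a rise of 0.52 ± 0.10 SE on the log2 scale (limma adjusted p = 0.00116). Rps2, described above, was 1.34-fold higher (0.42 ± 0.09 on the log2 scale, limma adjusted p = 0.0018).

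Rps10, which is marked with ubiquitin on stalled ribosomes, had 469, 502, 464, 492 and 484 normalized counts in BKO intact and 395, 365, 381, 330.4 and 391 in WT intact libraries, a rise of 0.37 on the log2 scale. Rps29 rose by 0.35 and Rpl15 by 0.33 on that scale. The call of Rpl15 (limma adjusted p = 0.0404) was lost when any 1 of 9 of the 10 intact libraries was left out, all but WT intact 5 (adjusted p up to 0.0878), and those of the other 6 were kept. Rpl3 and Rpl3l did not pass, at -0.13 ± 0.10 and 0.05 ± 0.08 SE on the log2 scale (limma adjusted p = 0.411 and 0.756).

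In ligated limbs, 0 members were higher and 10 lower in BKO than in WT (limma). Of all genes tested 4.16% were higher and 4.68% lower, 8.84% together, against 0% and 12.8% of the members. At an unadjusted p under 0.05 there were 0 higher and 38 lower, edgeR called 0 higher and 10 lower and DESeq2 0 higher and 16 lower. Among all 12262 genes, 1269 were higher and 1549 lower unadjusted, 543 and 583 with edgeR, and 645 and 680 with DESeq2. The median of the members was -0.21 and 71 of 78 lay below 0, against a median of -0.02 for all genes tested.

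The 10 included Rpl10, Rps15, Rpl22, Rps26, Rpl7a, Rpl24 and Rpl36a. This count turned on single libraries, and 1 of the 10 calls stayed whichever library was left out. It was 1, 24 and 2 without WT ligated 2, 4 and 5, and 4, 3 and 33 without BKO ligated 4, 5 and 6. Of all 12262 genes, 379, 611 and 368 were lower without those WT ligated libraries. Without those BKO ligated ones 469, 409 and 696 were, against 574 in the main fit. The count of members was 0, and that of all genes 398, when the spread was estimated from ligated libraries alone. Without the 3 libraries with most mt-Rnr2, 1 member was lower, with the mt-Rnr2 share as a covariate 0, without the intensity trend 5 and with a correction for transcript length 6. With scaling outside mitochondrial genes 29 were. Of all genes, 290, 293, 513, 559 and 955 were lower in these last fits, in that order.

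Rpl10, needed for the last step of large subunit assembly, had 969, 962, 915 and 1283 normalized counts in BKO ligated and 1418, 1182, 1378 and 1311 in WT ligated libraries, and the groups overlapped through BKO ligated 6. The log2 fold change was -0.37 ± 0.09 SE (limma adjusted p = 0.0124), and the call was lost without WT ligated 2 or BKO ligated 5. Rpl22 had 272, 297, 297 and 441 in BKO ligated and 470, 399, 447 and 414 in WT ligated libraries, and overlapped in the same way (-0.43 ± 0.11, limma adjusted p = 0.0216, lost without WT ligated 2 or 5 or BKO ligated 2, 4 or 5). Rps15, at the decoding site, differed by -0.31 on the log2 scale with no overlap, and its call was lost without WT ligated 2 or 5. The call of Rps26 (-0.38) was lost without WT ligated 2 or 5 or BKO ligated 4 or 5. Rpl3 and Rpl3l did not pass, at -0.24 ± 0.11 and 0.02 ± 0.09 SE on the log2 scale (limma adjusted p = 0.175 and 0.938).

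**Figure D4:**
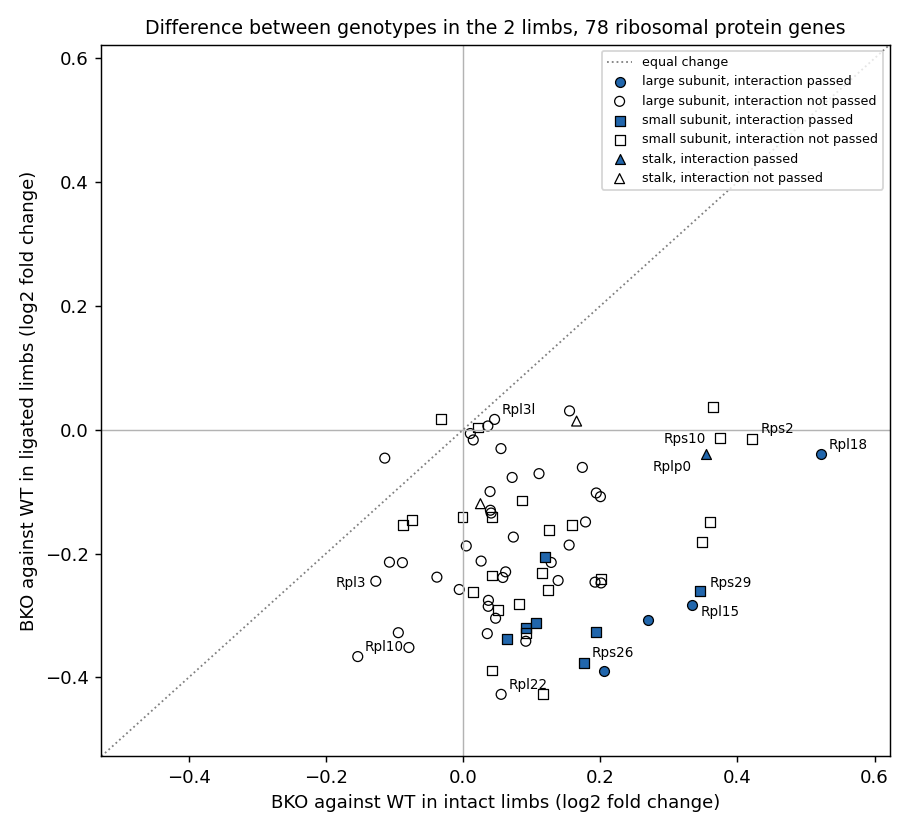
Log2 fold change of BKO against WT for each of the 78 genes in intact limbs (x axis) and in ligated limbs (y axis), with filled symbols for genes whose interaction passed. Nearly all points lie below the dotted line of equal change: most are above 0 in intact limbs and below 0 in ligated limbs, with Rpl18, Rps2, Rps10 and Rplp0 far to the right and near 0 on the y axis.

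To test whether the genotypes differed in their change with ligation, the log2 fold change in WT was subtracted from that in BKO, which is called the interaction here. It was below 0 for 76 of 78 members, with a median of -0.30 on the log2 scale against -0.01 for all genes tested. By limma, 0 members were higher and 12 lower, or 15.4% of members, against 3.04% and 2.97% of all genes, 6.01% together. At an unadjusted p under 0.05 there were 0 higher and 40 lower, edgeR called 0 and 11 and DESeq2 0 and 21. Among all 12262 genes, 1268 were higher and 1390 lower unadjusted, 418 and 344 with edgeR, and 604 and 590 with DESeq2. By subunit, 7 of 31 small subunit, 4 of 44 large subunit and 1 of 3 stalk genes were lower. The 12 included Rps29, Rplp0, Rps15, Rps26, Rpl15, Rpl18, Rpl41, Rps14, Rpl37a and Rpsa. The exceptions in sign were Rpl21, at 0.07, and Rps27a, at 0.05, and neither passed. The paralogs Rpl3 (-0.12 ± 0.14 SE, limma adjusted p = 0.693) and Rpl3l (-0.03 ± 0.12, adjusted p = 0.918) did not pass.

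Rps29, a zinc-binding protein of the small subunit, was the only one of the 12 whose call stayed without any 1 library. It had 527, 429, 521 and 601 normalized counts in BKO ligated, 676, 523, 627 and 658 in WT ligated, 662, 605, 657, 551 and 574 in BKO intact and 443, 431, 541, 479 and 507 in WT intact libraries. WT ligated was above WT intact except for library 4, and BKO ligated was below BKO intact except for library 6. The interaction was -0.61 ± 0.14 SE on the log2 scale (limma adjusted p = 0.0171), from a change of -0.24 in BKO that did not pass (adjusted p = 0.0616) and a rise of 0.37 in WT. Rpl15, at the core of the large subunit, had 716, 603, 757 and 1016 normalized counts in BKO ligated, 1042, 723, 1019 and 946 in WT ligated, 998, 989, 1046, 1026 and 990.3 in BKO intact and 771, 760.4, 837, 873 and 770 in WT intact libraries. BKO ligated 6 stood with the intact libraries of its genotype and WT ligated 4 with the lowest WT ones. Its interaction was -0.62 ± 0.17 (limma adjusted p = 0.0321), and it was lost without any of 9 libraries, in both limbs and both genotypes.

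The count of 12 also turned on single libraries. It was 1, 27, 1 and 5 without WT ligated 2, 4, 5 and 6, and 7, 3, 4 and 36 without BKO ligated 2, 4, 5 and 6. Of all 12262 genes, 187, 538, 199 and 255 were lower without those WT ligated libraries. Without those BKO ligated ones 344, 222, 289 and 541 were, against 364 in the main fit. The count of members was 6 and 6 without WT intact 3 and 4, and 6, 5 and 6 without BKO intact 2, 3 and 4. Without the 3 libraries with most mt-Rnr2 it was 6, with the mt-Rnr2 share as a covariate also 6, and with a correction for transcript length it was 2. Without the intensity trend it was 1. With scaling outside mitochondrial genes it was 38. Of all genes, 171, 239, 234, 214 and 1064 were lower in these last fits, in that order. The negative sign of the median of the members was kept in each setting of this paragraph.

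The libraries within the ligated groups differed more than those within the intact groups. Summed over the 78 members, the normalized counts were 52237, 52272, 53047 and 64289.7 in BKO ligated libraries 2, 4, 5 and 6, and 66376, 55299, 65528 and 62982 in WT ligated libraries 2, 4, 5 and 6. They were 66783 to 72655 in BKO intact and 63592 to 64211 in WT intact libraries. BKO ligated 6 stood with the WT ligated libraries, and WT ligated 4 with the other BKO ligated ones. BKO intact did not overlap WT intact. The 2 libraries with the largest mt-Rnr2 share, BKO ligated 4 and 5, were among the lowest sums, and BKO ligated 6, with the smallest share of its group, was the highest of its group. WT ligated 4, with the largest share of its group, was the lowest of its group. The part of mt-Rnr2 in these differences was not tested beyond the fits above. Outside mitochondrially encoded genes, members made up 0.594, 0.574, 0.633 and 0.726% of the normalized counts in BKO ligated libraries 2, 4, 5 and 6, 0.660 to 0.831% in WT ligated, 0.692 to 0.736% in BKO intact and 0.605 to 0.650% in WT intact libraries. On that scale all WT ligated libraries were above all WT intact ones, while 3 BKO ligated libraries lay below all BKO intact ones and BKO ligated 6 lay within their range.

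**Figure D5:**
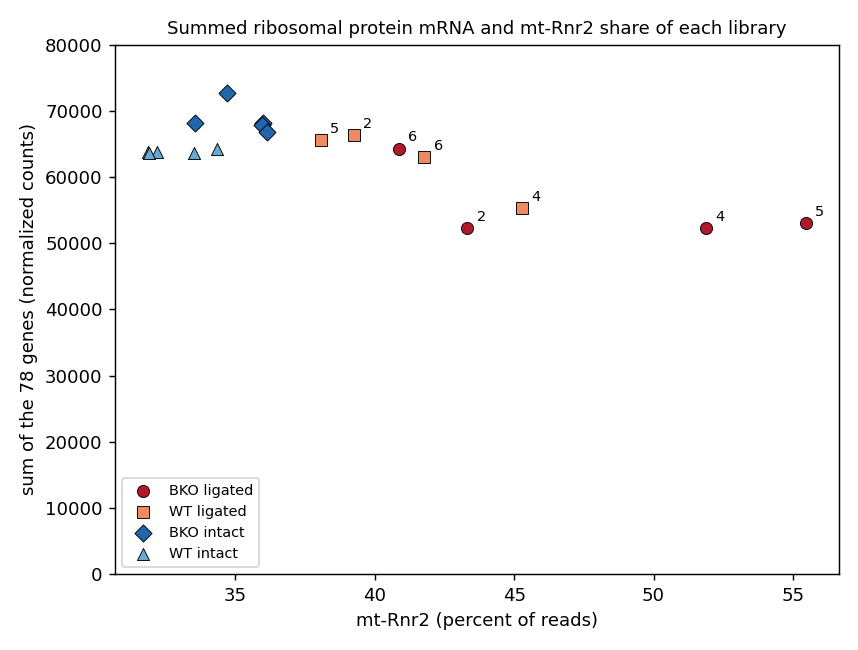
Sum of the normalized counts of the 78 genes (y axis, from 0) against the share of reads from mt-Rnr2 (x axis, percent) in each of the 18 libraries, with the number of each ligated library. BKO ligated 2, 4 and 5 and WT ligated 4 have the lowest sums, at 52237 to 55299 normalized counts, and BKO ligated 6 lies with the other WT ligated libraries.

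Markers of other cells moved with the same groups. With ligation, 22.1% of all genes tested rose and 25.1% fell in BKO, and 18.7% rose and 21.1% fell in WT. In bulk muscle, fewer cells of a type and less RNA per cell cannot be told apart. Adipocyte markers rose with ligation in 10 of 10 cases in both genotypes, with summed levels of 3654 to 7455 normalized counts in BKO ligated, 6655 to 9379 in WT ligated, 1738 to 2079 in BKO intact and 1777 to 2098 in WT intact libraries. Of 10 macrophage markers tested, 1 rose and 1 fell in BKO and 6 rose and 1 fell in WT with ligation, and 3 were lower in BKO ligated than in WT ligated muscle (Csf1r, C1qc and Lyz2), with summed levels over the 13 listed of 577 to 940.1 in BKO ligated, 1052 to 1305 in WT ligated, 424 to 823 in BKO intact and 581 to 794 in WT intact libraries. Endothelial markers rose in 10 of 12 cases in BKO and 9 of 12 in WT, fibroblast markers in 6 of 10 in BKO and 7 of 10 in WT, and muscle fibre markers fell in 8 of 13 in each, with 1 rise in BKO. Of 5 erythrocyte markers, 0 rose and 2 fell with ligation in BKO (Hba-a1 and Hbb-bs), and limma called none in WT, for the genotypes in either limb or for the interaction. Their medians were -0.39 with ligation in BKO and 0.22 in WT, 0.42 for BKO against WT in intact limbs and -0.46 for the interaction. Their summed levels were 1721 to 2027 normalized counts in BKO ligated, 1969 to 2406 in WT ligated, 1978 to 3621 in BKO intact and 1626 to 2715 in WT intact libraries. Interaction medians were also below 0 for macrophage (-0.55), adipocyte (-0.30) and fibroblast (-0.05) markers and for the 1 lymphocyte marker tested (-0.71). They were above 0 for satellite cell (0.65) and muscle fibre (0.03) markers, and 0.00 for endothelial markers. Of the 5 satellite cell markers tested, of 6 listed, 4 rose with ligation in BKO and 2 in WT, and 2 were higher in BKO ligated than in WT ligated muscle (Myod1 and Chodl), with summed levels of 485 to 519 in BKO ligated, 318 to 381 in WT ligated, 225 to 318 in BKO intact and 275 to 380.4 in WT intact libraries. The lymphocyte markers Cd3e, Cd3d and Cd8a were at 0 in all WT intact libraries. The part of these cells in the changes of the members was not tested.

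The members were also set out by features that the naming rule did not use. They lie on 19 chromosomes, with 14 on chromosome 7. Those with the pyrimidine run near their start (36) had a median ligation change of -0.30 in BKO and -0.03 in WT on the log2 scale, and those without it (22) had -0.19 in BKO and 0.12 in WT. The ranges of the 2 sets overlapped widely, from -1.47 to 0.45 with the run and from -1.07 to 0.39 without it in BKO. Between the start and end of 29 members, on the same strand, lie 56 annotated small nucleolar RNAs, a class that guides the modification of rRNA. These hosts had a median ligation change of -0.22 in BKO and -0.14 in WT, and the other 49 members had -0.22 in BKO and 0.10 in WT. For the interaction the median was -0.21 in hosts and -0.34 in the others. The annotated transcript had a median length of 882 bases, against 3107 for all protein-coding genes tested. Across all 12194 genes with a length, the interaction rose with transcript length, with a Spearman correlation of 0.29, and the difference between genotypes in intact limbs fell with it, at -0.22. With the trend of each library on length removed, the median of the members was -0.12 for the interaction, -0.05 for intact limbs, -0.15 for ligated limbs and -0.04 for ligation in BKO. Its sign in intact limbs then differed from that without the correction.

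Near-identical copies limit single genes. Ribosomal protein genes have many processed pseudogenes, and the median member shared 43.5% of its 50-base stretches with another annotated transcript, from 0% in Rpl3l to 98.6% in Rps27. The submitters' processing notes name RSEM, which divides such reads by estimate, with no setting. Counts assigned to 104 pseudogenes named after these genes came to 3.01 to 3.46% of the members' sum. Among genes named above, the share was 85.4% in Rpl10 and 71.3% in Rps2, so their values are less certain, and 37.8% in Rps26 and 19.1% in Rps24. Of the 47 members that shared under 50% of their stretches, 12 were lower for the interaction, and of the other 31, 0 were by limma. The median interaction was below 0 in both sets, at -0.34 in the 47 and -0.28 in the 31 on the log2 scale. The calls with ligation in BKO, 4 higher and 25 lower of 47 against 4 higher and 12 lower of 31, were present in both sets.

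Other genes of the translation machinery were counted from lists. Among all genes tested, 22.1% rose and 25.1% fell with ligation in BKO, and 18.7% rose and 21.1% fell in WT. Of 40 genes of ribosome assembly and rRNA synthesis, 19 fell and 1 rose with ligation in BKO and as many in WT (limma), and the median was -0.30 in BKO and -0.36 in WT on the log2 scale. Rrn3, which recruits RNA polymerase I, fell by 0.68 in BKO and by 0.69 in WT, and Ltv1, an assembly factor of the small subunit, by 0.99 and by 0.88. For the interaction 1 of the 40 was higher (Ncl, at 0.66) and 1 lower (Nop10, at -0.77), with a median of 0.02, and in ligated limbs 0 were higher and 1 lower in BKO than in WT.

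Of 31 initiation factors, 6 rose and 16 fell with ligation in BKO, and 2 rose and 11 fell in WT, with medians of -0.25 and -0.20 on the log2 scale. Eif4g2, which starts translation without the cap-binding protein, fell by 0.65 in BKO and by 1.04 in WT. Of 11 elongation and release factors, 2 rose and 9 fell in BKO, and 1 rose and 6 fell in WT. The gene that rose in both was Eef1a1, the form of elongation factor 1 alpha that adult muscle normally replaces by Eef1a2, and it rose by 0.95 in BKO and 1.04 in WT. It averaged 4197 ± 481 normalized counts in BKO ligated and 4780 ± 266 in WT ligated (SD, n = 4 each), and 2160 ± 168 in BKO intact and 2330 ± 70.8 in WT intact libraries (SD, n = 5 each). Tpt1, a growth-related protein with a TOP mRNA, rose too in BKO, by 0.76 on the log2 scale.

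Of 22 genes of mTORC1 signalling and TOP mRNA control, 5 rose and 7 fell with ligation in BKO, and 2 rose and 7 fell in WT. In BKO that is 22.7% and 31.8%, near the 22.1% and 25.1% of all genes tested. In WT it is 9.09% and 31.8%, against 18.7% and 21.1%. Larp1, the repressor of TOP mRNAs, averaged 970.3 ± 119 normalized counts in BKO ligated and 866 ± 43.1 in WT ligated (SD, n = 4 each), and 952 ± 78.9 in BKO intact and 1389 ± 105 in WT intact libraries (SD, n = 5 each). It was lower in BKO than in WT in intact limbs (log2 fold change -0.55 ± 0.08 SE, limma adjusted p = 5.97e-05), and its interaction was 0.70 ± 0.12 (adjusted p = 0.00284), opposite in sign to the median of the members. Rps6kb1, the kinase of the small subunit protein Rps6, fell by 0.53 with ligation in BKO and by 0.96 in WT and was lower by 0.40 in BKO intact than in WT intact muscle on the log2 scale.

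Among ribosome-linked genes outside the naming rule, Rps3a1, the gene of a small subunit protein, fell by 0.39 with ligation in BKO, and Fau, made as a fusion, fell by 0.36 on the log2 scale. Rpl36al, a paralog of Rpl36a, fell by 0.53 in BKO and by 0.56 in WT. Rpl22l1, a paralog of Rpl22, rose by 0.67 in WT. Naca, which binds new chains at the exit tunnel, averaged 4310 ± 110 normalized counts in BKO ligated and 4138 ± 269 in WT ligated (SD, n = 4 each), and 1822 ± 346 in BKO intact and 4013 ± 932 in WT intact libraries (SD, n = 5 each), so BKO intact stood apart (-1.13 on the log2 scale against WT intact, limma adjusted p = 2.9e-06).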

How the data were processed

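RNA was measured by stranded total RNA sequencing in 18 mouse muscle libraries. The deposited table holds a signal per gene, a normalized count. The steps between its values show whole numbers divided by 1 factor per library, as the authors' use of DESeq2 would give. The submitters' processing notes name Trimmomatic 0.33, STAR 2.5.2, RSEM 1.3.3, DESeq2 and the build mm10, with no strand setting. Multiplying by the factor recovered whole numbers for 100.0% of values (tolerance 0.001), with sums of 14.1 to 25.6 M per library. These are called reads here, but may be rounded RSEM estimates rather than counted reads. In WT intact 6 and BKO ligated 2 the factor is near 1, so whole numbers tell less there.

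Normalized counts were tested as log2(value + 1) with limma 3.58.1 (R 4.3.3) in 1 fit of 4 groups with an intensity trend, over 12262 genes with a mean of at least 10. The Benjamini-Hochberg threshold was 0.05. Fold changes are on that scale and understate those of low genes. The fit gave 5 comparisons. As alternatives on recovered reads, edgeR 4.0.16 called 2473 genes higher and 2426 lower for ligation in WT, and DESeq2 1.42.0 was also run. Other alternatives changed the pseudocount, filter, trend, scaling, libraries, block and covariates. The tests were tried on simulated data first.

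The members, gene lists and markers were chosen with earlier results of these data known. Members were named by the smallest p in each comparison and direction, up to 6, with Rpl3 and Rpl3l always named. A few genes stay in the counts and fits but are not reported here. Symbols, lengths and gene positions came from GENCODE (GRCm38) and promoters from RefSeq (GRCm38.p6). Replicates of a group differed beyond sampling noise in all 32 pairs of libraries (chi-square per degree of freedom 7.35 to 138). The labels do not say that libraries came from separate mice, and the spread that the p-values rest on may be technical.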

Additional observations from a re-analysis of the deposited data

Results flagged for a closer look

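Among 124 checks of a gene or sum within a group, some libraries stood far from the rest of their group; chance alone sets about 1 group in 20 apart in this way. BKO ligated 6 was high in 5 of them. It had 1283 normalized counts of Rpl10 against 915 to 969 in the other BKO ligated libraries, 441 of Rpl22 against 272 to 297, 527 of Rps15a against 296 to 334 and 199 of Rps27 against 150 to 153 (149.9 at the lowest). Its sum over the 78 genes was 64289.7, against 52237 to 53047 in the other BKO ligated libraries. WT ligated 6 had 880.3 normalized counts of Rpl21, against 941 to 945 in the others of its group. BKO intact 3 had a sum of 72655, against 66783 to 68150 (68149.5) in the others of its group. WT intact 3 had 1350.2 normalized counts of Rpl21, against 1174 to 1205, and 281 of Rpl3, against 216 to 223. WT intact 5 had 738 of Rpl41, against 781 to 798.

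The change with ligation differed between BKO and WT, by the interaction term of the limma fit, in 12 genes, and was lower in BKO in each. On the log2 scale the difference in the genes reported here was -0.61 in Rps29, -0.39 in Rplp0, -0.42 in Rps15, -0.55 in Rps26 and -0.62 in Rpl15. It was -0.56 in Rpl18, -0.60 in Rpl41, -0.52 in Rps14, -0.58 in Rpl37a and -0.32 in Rpsa. Rps29 was the only one of the 12 past the threshold whichever single library was left out.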

How the results depend on the processing

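Leaving out 1 library gave, for ligation, 7 to 8 rises and 35 to 51 falls in BKO, and 19 to 27 rises and 15 to 20 falls in WT. For BKO against WT it gave 6 to 9 higher in intact limbs and 1 to 33 lower in ligated limbs, and 1 to 36 lower for the interaction. Without a filter on low values the interaction count was 6. Without the intensity trend it was 1, and that in ligated limbs 5. Fits of only the groups compared gave 14 higher in intact limbs and 0 lower in ligated limbs. Scaling outside mitochondrial genes gave 43 rises and 5 falls for ligation in WT, 13 higher in intact limbs, 29 lower in ligated limbs and 38 lower for the interaction. It changed the sign of 3 calls for ligation in WT (Rpl11, Rpl30 and Rpsa). It put the median of all genes at 0.12 for ligation in BKO, 0.27 for ligation in WT, 0.07 for intact limbs, -0.10 for ligated limbs and -0.16 for the interaction. The share of all calls that were higher was then 60.1, 79.5, 62.1 and 27.1% for the first 4 of these, against 46.9, 47.0, 46.7 and 47.0% with the deposited scaling, and 57.3% for ligation in WT with upper-quartile scaling. For the interaction it was 17.96% against 50.6%. The cause was not tested.

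Several alternatives were chosen after seeing the data. Without BKO ligated 4 and 5 and WT ligated 4, 1 member was lower in ligated limbs and 6 for the interaction. The mt-Rnr2 covariate gave 12 falls in BKO, 8 falls in WT, 18 higher in intact limbs, 0 lower in ligated limbs and 6 lower for the interaction, and it reversed the change with ligation in BKO of Rpl15 (0.028) and Rpl41 (0.17) and of Rpl8 (0.03) and Rps28 (0.06). The correction for transcript length gave 16 rises with ligation in BKO, 3 lower in intact limbs, 6 lower in ligated limbs and 2 lower for the interaction. DESeq2 gave 16 lower in ligated limbs and 21 for the interaction, where 2142 genes had no adjusted p. Every count with edgeR was within 1.5 times that of limma.

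Same-numbered libraries did not deviate together: of the 15 pairs, 1 had a correlation over 0.1. Of the 7 pairs that joined the 2 limbs of a genotype, 0 did. The limbs of 1 mouse need not deviate alike, so this does not show whether the numbers mark the same mouse. With the number as a replicate block, 4 members rose with ligation in BKO and 5 were lower for the interaction; with 38 falls in BKO, 22 rises and 18 falls in WT, 8 higher in intact limbs and 9 lower in ligated limbs, the other counts were within 1.5 times. With the length correction and the replicate block together, 2 were lower in intact limbs, 2 in ligated limbs and 1 for the interaction. Over all settings, 1988 values of named members stayed on their side of the threshold with the same direction, 212 lost their call and 2 (Rpl15 and Rpl41) reversed. The lowest mean of a member was 194 normalized counts (Rps27).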

Other observations

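Rps16 stood out among the members by its spread within groups and was named after its values were seen. It had 239.9, 240.5, 283.9 and 123.3 normalized counts in BKO ligated libraries 2, 4, 5 and 6, so BKO ligated 6, the library with the highest sum over the 78 genes in its group, had the lowest count of Rps16. Per length of transcript, Rpl22l1 stood at 1.03 ± 0.158 of the level of its paralog Rpl22 in BKO ligated and 0.924 ± 0.117 in WT ligated libraries (SD, n = 4 each), and at 0.538 ± 0.0616 in BKO intact and 0.546 ± 0.144 in WT intact libraries (SD, n = 5 each). The ligated and intact libraries did not overlap in this ratio.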
